A study of Canis lupus familiaris with 12 samples.

Results

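The contractile genes studied here are known targets of serum response factor (SRF) and its cofactors of the MRTF family, together with SRF itself. They were taken by symbol from a list of 10 genes, namely SRF, TAGLN, TAGLN2, ACTA2, TPM1, TPM2, CNN2, VCL, CALD1, and FLNA. Of these 10 genes, 8 were listed in the expression table of 13672 genes, and 7 passed the filter on low values. ACTA2 was listed but lay under the filter, so its reads are described without a test, and TPM2 and CALD1 were not analysed here. The question was whether known SRF-MRTF targets changed in cells that lack cingulin (CGN), paracingulin (CGNL1), or both.

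As background, MRTF cofactors bind monomeric actin and stay in the cytoplasm while monomeric actin is plentiful. When actin is driven into filaments, they enter the nucleus and act with SRF on genes that encode actin-binding and contractile proteins, and many of these proteins build the filaments whose assembly controls the cofactors. SRF also works with ternary complex factors (TCF), which respond to MAP kinase signaling and switch on immediate early genes. The listed genes are best known as smooth muscle contractile genes, but several of them are widely expressed in epithelial cells, where they serve the cortical and junctional actomyosin network.

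RNASeq was performed on MDCKII cells, an epithelial line from dog kidney, of 4 genotypes with 3 libraries each and no treatment. The genotypes were wild type (WT), CGN-KO, CGNL1-KO, and a double KO of both genes (CGN_CGNL1-dKO in the labels, dKO here), with the KOs made by CRISPR/Cas9. Cingulin and paracingulin are proteins of the cytoplasmic face of tight junctions, and paracingulin is also found at adherens junctions. Each KO genotype was 1 clonal line, so a difference between genotypes and a difference between clones cannot be told apart. Nothing in the labels says that the libraries came from separate cultures, so the p-values measure only the spread between these libraries, which may be technical.

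The values are CPM as deposited, which are read counts scaled to the size of the library and to a normalization factor (trimmed mean of M values, TMM). The libraries held 16837532 to 30086076 reads. CGN was at 199 to 233 CPM in WT and 47.0 to 56.5 CPM in CGN-KO cells, and it was at 39.7 to 45.3 CPM in dKO cells. CGNL1 was at 7.74 to 12.3 CPM in WT, 1.76 to 3.02 CPM in CGNL1-KO, and 1.11 to 1.76 CPM in dKO cells, and it was also lower in CGN-KO than in WT cells, at 5.04 to 6.92 CPM. All 8 epithelial and kidney tubule markers were listed, with summed levels of 5185 to 5642 CPM over the 12 libraries. Of these 8, 3 rose and 3 fell in CGN-KO (19.0% of all genes tested were called), 2 rose in CGNL1-KO (10.3%), and 2 rose and 2 fell in dKO cells (26.3%). In CGNL1-KO cells 1 was called without WT replicate 3 or CGNL1-KO replicate 3, or with only the 2 genotypes compared. Of 12 smooth muscle and fibroblast markers only SMTN and PDGFRA were listed, and the other 10, among them MYH11, DES, CNN1, LMOD1, ACTG2, and MYOCD, were not analysed here. The summed level of SMTN and PDGFRA was 52.3 to 56.7 CPM in WT, 64.8 to 71.3 in CGN-KO, 60.5 to 69.5 in CGNL1-KO, and 66.3 to 75.6 in dKO cells. SMTN was called higher in dKO cells. In CGN-KO cells SMTN and PDGFRA lay just inside the threshold (adjusted p = 0.0423 and 0.0489), and 1 or neither of them was called in 10 of the 12 cases with 1 library left out, and 1 with DESeq2, with a filter at 5 CPM, or with only the 2 genotypes compared. Of 5 endothelial and immune markers KDR and CD68 were listed, at a summed 1.21 to 3.75 CPM over the 12 libraries. In limma KDR was called higher in CGNL1-KO (log2 difference 0.46, adjusted p = 0.0474) and lower in dKO cells (-0.96, adjusted p = 0.000113). The CGNL1-KO call was lost in most cases with 1 library left out, and with edgeR or DESeq2. Neither marker was called in CGN-KO cells. The part of such cells in any result was not tested. Fewer cells that express a gene and less of its RNA per cell cannot be told apart in these bulk samples.

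Among the 7 genes tested, CNN2 rose in all 3 KO lines, and no other gene passed the test in more than 1 KO line against WT. TAGLN fell in CGNL1-KO cells, and TAGLN2 and TPM1 rose in dKO cells. SRF and VCL passed in no comparison. The threshold was an adjusted p below 0.05 in limma on log2(CPM + 1), and fold changes are given on this scale, which understates the change of low genes. In CGN-KO cells 1 of 7 genes was called, where 19.0% of all 12650 genes tested were called. In CGNL1-KO cells 2 of 7 were called, against 10.3% of all genes, and in dKO cells 3 of 7, against 26.3% of all genes. The 7 genes had a median log2 fold change of 0.03 for CGN-KO, -0.04 for CGNL1-KO, and 0.19 for dKO cells, and that of all genes lay between -0.004 and -0.0004. These 3 comparisons share the WT libraries.

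**Figure D1:**
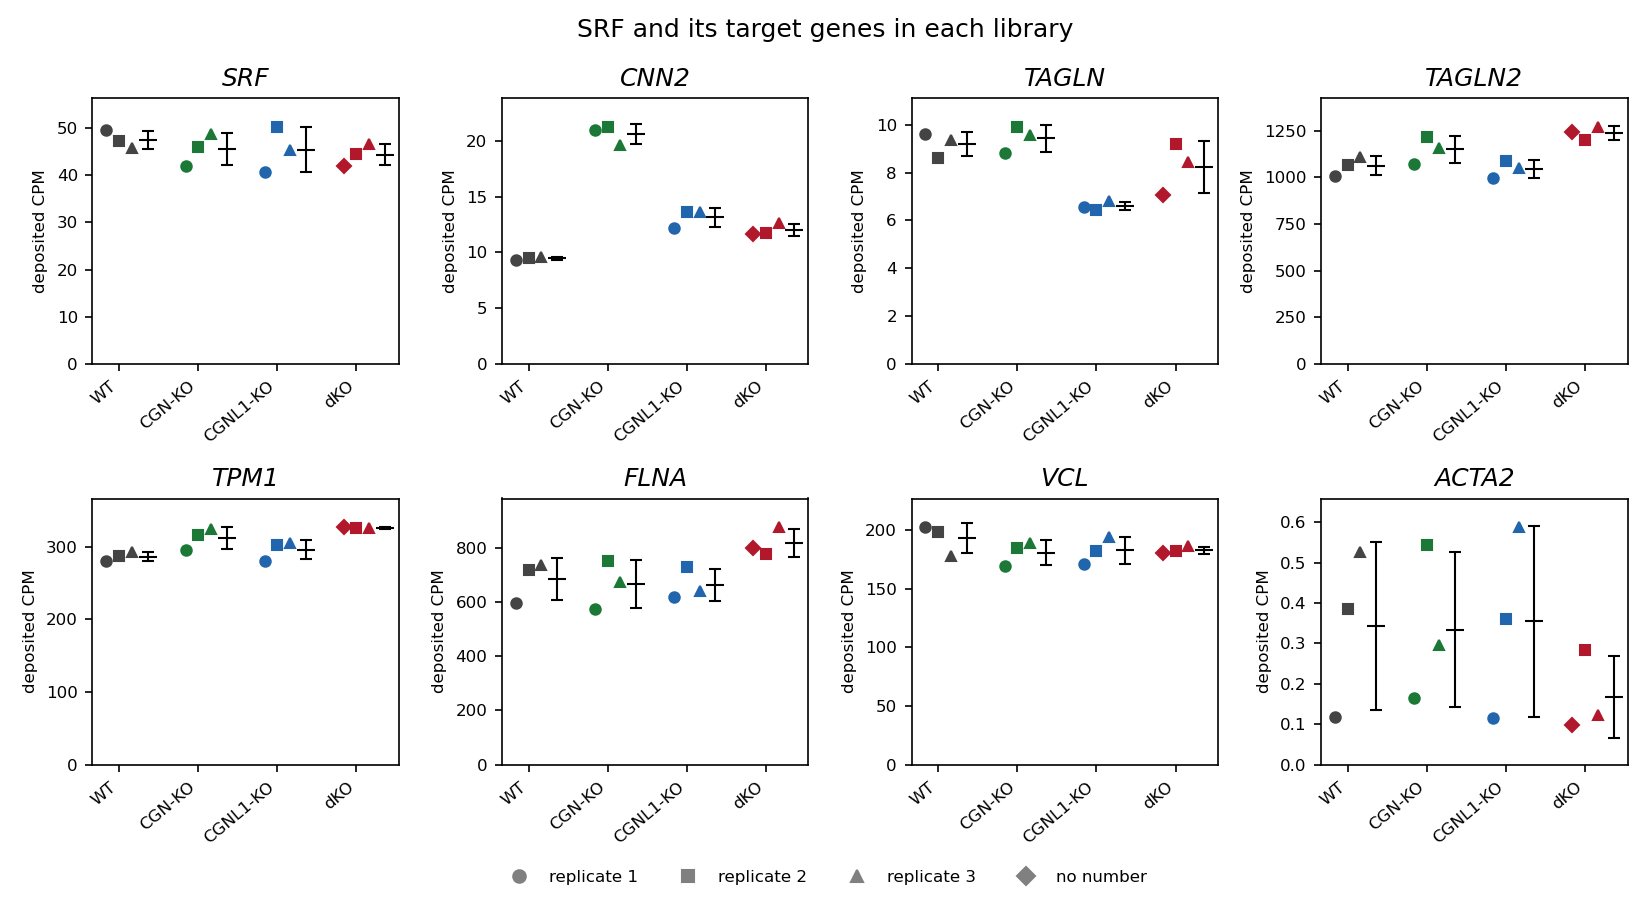
Levels of the 8 listed SRF-MRTF genes in CPM (vertical axis, a separate linear scale for each gene) in the 12 libraries, grouped by genotype (horizontal axis). Each marker is 1 library, with the shape showing its replicate number and a diamond the unnumbered dKO library, and bars show the mean ± SD of 3 libraries. The CGN-KO libraries of CNN2 sit at 19.6 to 21.3 CPM, above all other libraries, whereas the 4 genotypes overlap for SRF.

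SRF encodes the DNA-binding factor itself, and its own gene is also an SRF target. The 3 WT libraries measured 49.5, 47.3, and 45.8 CPM, and the CGN-KO libraries 41.9, 46.1, and 48.8 CPM. The CGNL1-KO libraries measured 40.7, 50.3, and 45.3 CPM, and the dKO libraries 42.0, 44.4, and 46.6 CPM. The 4 genotypes overlapped, and the means followed the order WT, CGN-KO, CGNL1-KO, and dKO, with no neighbors in this order apart by more than their spread. In dKO cells the log2 difference from WT was -0.10 (95% confidence interval -0.26 to 0.07, adjusted p = 0.385), and CGN-KO (-0.06, adjusted p = 0.633) and CGNL1-KO cells (-0.07, adjusted p = 0.675) did not pass either.

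CNN2 encodes calponin 2, an actin-binding protein of non-muscle and smooth muscle cells. It measured 9.31, 9.49, and 9.61 CPM in WT and 21.0, 21.3, and 19.6 CPM in CGN-KO cells. In CGNL1-KO cells it was at 12.2, 13.6, and 13.6 CPM, and in dKO cells at 11.7, 11.7, and 12.6 CPM. Every KO library lay above every WT library, and the CGN-KO libraries lay above all the others, while CGNL1-KO and dKO cells overlapped. The values rest on 158 to 636 reads per library.

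CNN2 was 2.06-fold higher in CGN-KO than in WT cells (log2 difference 1.05, 95% confidence interval 0.88 to 1.21, adjusted p = 1.31e-07), and it was the only one of the 7 genes to reach a 2-fold change, which 1.31% of all genes did in this comparison. In CGNL1-KO cells it was 1.35-fold higher (log2 difference 0.43, adjusted p = 0.00174), and in dKO cells 1.24-fold higher (log2 difference 0.31, adjusted p = 0.0078). The level in dKO cells was 0.602 of that in CGN-KO cells (adjusted p = 2.93e-05) and could not be told from that in CGNL1-KO cells (log2 difference -0.12, 95% confidence interval -0.29 to 0.05, adjusted p = 0.361). CGN-KO cells stood 0.61 above CGNL1-KO cells on the log2 scale (adjusted p = 0.000127). Thus the largest rise was in the line that lacked CGN alone, and the line that lacked both genes stood near the line that lacked CGNL1.

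If the log2 changes of the single KO lines were added, the dKO level of CNN2 would be higher than it was. The dKO value lay 1.16 below this sum on the log2 scale (log2 difference -1.16, 95% confidence interval -1.40 to -0.93, adjusted p = 6.46e-06), which was the only such departure called among the 7 genes, against 10.3% of all genes. The CNN2 calls against WT were kept when any 1 library was left out, with a log2 difference in CGN-KO cells between 1.02 and 1.08.

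**Figure D2:**
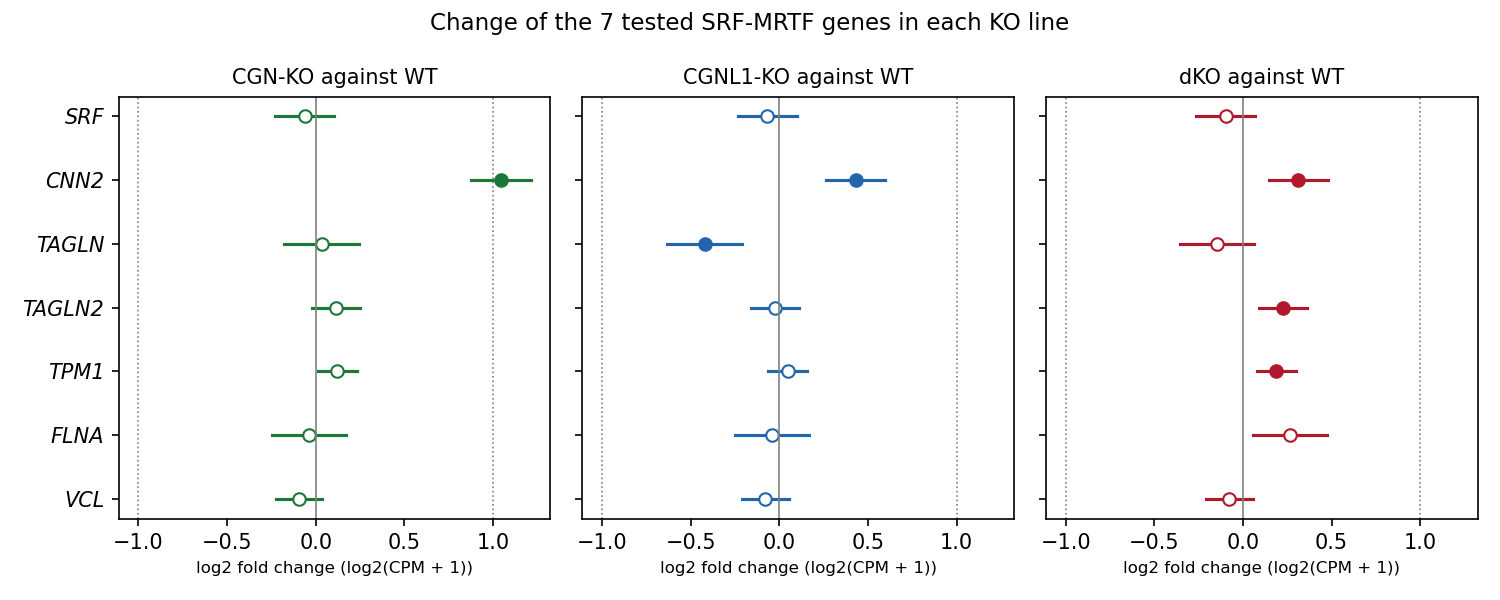
Log2 fold change of the 7 tested genes (horizontal axis, difference in log2(CPM + 1)) in CGN-KO, CGNL1-KO, and dKO cells against WT, 1 panel each. Points are estimates from 3 libraries per genotype with 95% confidence intervals, filled points have an adjusted p below 0.05, and dotted lines mark 2-fold changes. CNN2 is filled in every panel, from 0.31 to 1.05, and SRF and VCL are open in every panel.

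TAGLN encodes transgelin (SM22), an actin-crosslinking protein that serves as an early smooth muscle marker. It measured 9.60, 8.61, and 9.37 CPM in WT and 8.80, 9.92, and 9.57 CPM in CGN-KO cells. The CGNL1-KO libraries were at 6.56, 6.45, and 6.79 CPM, and the dKO libraries at 7.07, 9.21, and 8.44 CPM. The CGNL1-KO libraries lay below all 9 others, and the unnumbered dKO library, at 7.07 CPM, was the next lowest. These levels rest on 113 to 267 reads per library.

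TAGLN was at 0.746 of the WT level in CGNL1-KO cells (log2 difference -0.42, 95% confidence interval -0.63 to -0.21, adjusted p = 0.0113). It did not pass the test in CGN-KO cells (log2 difference 0.03, adjusted p = 0.855) or in dKO cells (log2 difference -0.15, 95% confidence interval -0.36 to 0.06, adjusted p = 0.302). CGN-KO cells stood 1.37-fold above CGNL1-KO cells (adjusted p = 0.0118), but without the library CGN-KO replicate 2 the adjusted p of this difference was 0.0568 (range over the 12 libraries left out in turn, 0.00833 to 0.0568). The dKO line stood 0.28 above CGNL1-KO cells on the log2 scale and was not called (adjusted p = 0.0777). Without the unnumbered dKO library this difference was 0.37 and was called (adjusted p = 0.0334, range 0.0334 to 0.292).

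TAGLN2 encodes transgelin 2, the widely expressed relative of TAGLN. It was at 1006, 1068, and 1108 CPM in WT, 1073, 1215, and 1158 CPM in CGN-KO, and 995, 1089, and 1049 CPM in CGNL1-KO cells. The dKO libraries measured 1244, 1199.7, and 1272 CPM, above all WT and CGNL1-KO libraries and overlapping those of CGN-KO cells. In dKO cells it was 1.17-fold above WT (log2 difference 0.22, 95% confidence interval 0.09 to 0.36, adjusted p = 0.0158) and 1.19-fold above CGNL1-KO cells (adjusted p = 0.0155). It was not called in CGN-KO (log2 difference 0.11, adjusted p = 0.23) or CGNL1-KO cells (log2 difference -0.02, adjusted p = 0.884). The difference between dKO and WT cells was lost without WT replicate 1 (adjusted p = 0.0736) or dKO replicate 3 (adjusted p = 0.0685; range 0.00877 to 0.0736), and that from CGNL1-KO cells without CGNL1-KO replicate 3, the unnumbered dKO library, or dKO replicate 3 (adjusted p = 0.0538, 0.0549, and 0.0724; range 0.0081 to 0.0724). Against WT, TAGLN was called in CGNL1-KO cells and TAGLN2 in dKO cells. For TAGLN the limma test did not separate these 2 lines (adjusted p = 0.0777), so its change is not shown to be confined to CGNL1-KO cells.

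TPM1 encodes tropomyosin 1, which winds along actin filaments and sets their access to myosin and cofilin. It was at 279.7, 287, and 292 CPM in WT and at 295, 316, and 324 CPM in CGN-KO cells. In CGNL1-KO cells it was at 281, 302, and 305 CPM, and in dKO cells at 327, 325, and 326 CPM. The dKO libraries lay within 2 CPM of each other and above all 9 others, and the lowest of CGN-KO lay just above the highest of WT. TPM1 was 1.14-fold higher in dKO than in WT cells (log2 difference 0.19, 95% confidence interval 0.08 to 0.30, adjusted p = 0.0129), a call kept when any 1 library was left out. The difference was 0.12 in CGN-KO cells (adjusted p = 0.11) and 0.05 in CGNL1-KO cells (adjusted p = 0.654). The dKO line was not separated by the test from CGN-KO (log2 difference 0.07, adjusted p = 0.502) or CGNL1-KO cells (log2 difference 0.14, adjusted p = 0.0825), although the latter difference was called when the values were scaled by library totals only (0.17, adjusted p = 0.0258, range over 9 settings 0.0258 to 0.199). Tropomyosin genes share similar exons, so how the counting divided reads between TPM1 and its relatives is uncertain.

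FLNA encodes filamin A, which crosslinks actin filaments into networks and links them to integrins. It was at 595, 718, and 739 CPM in WT, 576, 751, and 675 CPM in CGN-KO, and 618, 729.7, and 641 CPM in CGNL1-KO cells. The dKO libraries, at 801, 779.7, and 878 CPM, were the 3 highest of the 12. In each of the other genotypes replicate 1 was the lowest library, and the spread within genotypes was the largest among the 7 genes, with an SD of 0.15 on the log2 scale. FLNA was 1.20-fold higher in dKO than in WT cells and missed the threshold (log2 difference 0.26, 95% confidence interval 0.06 to 0.47, adjusted p = 0.0579). Against CGNL1-KO cells the 1.24-fold difference was just inside it (adjusted p = 0.0461), and against CGN-KO cells the 1.23-fold difference was outside (adjusted p = 0.069).

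These FLNA calls turned on single libraries. The call against CGNL1-KO cells was lost in 7 of the 12 cases with 1 library left out, namely WT replicate 2, CGN-KO replicate 3, CGNL1-KO replicates 1 and 3, and each dKO library (adjusted p = 0.0561 to 0.191 in these cases, range over all 12, 0.0167 to 0.191). The difference from WT was called without WT replicate 3, CGN-KO replicate 1 or 2, or CGNL1-KO replicate 1 or 2 (adjusted p = 0.0239 to 0.0461, range over all 12, 0.0239 to 0.254). The difference from CGN-KO cells was called without WT replicate 1, CGN-KO replicate 2, or CGNL1-KO replicate 1 or 2 (adjusted p = 0.0269 to 0.0483, range over all 12, 0.0269 to 0.284). In the single KO lines the log2 differences from WT were -0.04, with adjusted p values of 0.828 (CGN-KO) and 0.852 (CGNL1-KO).

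VCL encodes vinculin, which links junctional and integrin complexes to actin under tension. It was at 203, 199, and 178 CPM in WT, 169, 185, and 189 CPM in CGN-KO, 171, 182, and 195 CPM in CGNL1-KO, and 181, 182, and 186 CPM in dKO cells. All 4 genotypes overlapped. The log2 differences from WT were -0.09 in CGN-KO (adjusted p = 0.318), -0.08 in CGNL1-KO (adjusted p = 0.508), and -0.08 in dKO cells (95% confidence interval -0.21 to 0.06, adjusted p = 0.401). The 3 KO lines differed from each other by at most 0.02 on this scale.

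ACTA2 encodes smooth muscle alpha-actin, a marker of contractile smooth muscle cells and myofibroblasts. It had 2, 7, and 11 reads in WT, 5, 11, and 5 reads in CGN-KO, 2, 8, and 11 reads in CGNL1-KO, and 2, 5, and 3 reads in dKO libraries. The sums were 20, 21, 21, and 10 reads, with exact 95% Poisson intervals for counting error of 12.2 to 30.9, 13.0 to 32.1, 13.0 to 32.1, and 4.80 to 18.4 reads. The intervals overlap, but overlap is not a test of a difference. The sums are not scaled to depth, and the genotypes held 55855069 to 66738311 reads in all. A difference in ACTA2 between genotypes was not tested. No library exceeded 0.589 CPM. Actin genes are close in sequence, so these few reads may belong in part to other actins.

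Tested for any difference among the 4 genotypes with limma's moderated F test, CNN2 (adjusted p = 5.95e-07), TAGLN (0.00755), TAGLN2 (0.0217), and TPM1 (0.0402) were called, which is 4 of 7 where 29.9% of all genes were called. FLNA (adjusted p = 0.0581), VCL (0.568), and SRF (0.734) were not. In dKO against WT cells 4 of the 7 genes, CNN2, TAGLN2, TPM1, and FLNA, had all 3 KO libraries above all 3 WT libraries, and 45.0% of all genes had groups that did not overlap. The count was 2 of 7 in CGN-KO cells (CNN2 and TPM1, both higher; 35.9% of all genes) and 2 of 7 in CGNL1-KO cells (CNN2 higher and TAGLN lower; 24.4% of all genes). Between KO lines the groups did not overlap for 2 of 7 genes in CGN-KO against CGNL1-KO (19.4% of all genes), 3 of 7 in dKO against CGN-KO (30.5%), and 4 of 7 in dKO against CGNL1-KO (31.8%). The calls between KO lines were 2 of 7 for CGN-KO against CGNL1-KO (5.19% of all genes), 1 of 7 for dKO against CGN-KO (8.84%), and 2 of 7 for dKO against CGNL1-KO (14.4%).

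The 5 genes whose values over the 12 libraries lay nearest to those of CNN2 were MEX3A, PIK3R5, FBLN5, B4GALNT3, and TMPRSS6. Likeness was the root mean square difference of log2(CPM + 1) after each gene was set to 0 at its WT mean, and it ran from 0.126 for MEX3A to 0.177 for TMPRSS6. On the log2 scale MEX3A stood above WT by 1.01 for CGN-KO, 0.44 for CGNL1-KO, and 0.43 for dKO cells, against 1.05, 0.43, and 0.31 for CNN2. None of the 5 is on the lists of SRF cofactors or targets used here. They were picked for this likeness over the same libraries, so the shared pattern is not a result. TMPRSS6 was at 1.24 to 1.78 CPM in CGN-KO cells. Outside them it exceeded the filter of 1 CPM only in CGNL1-KO replicate 1 (1.10 CPM) and dKO replicate 2 (1.02 CPM). It was thus tested only because CGN-KO was high, and its place among the 5 carries no weight.

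**Figure D3:**
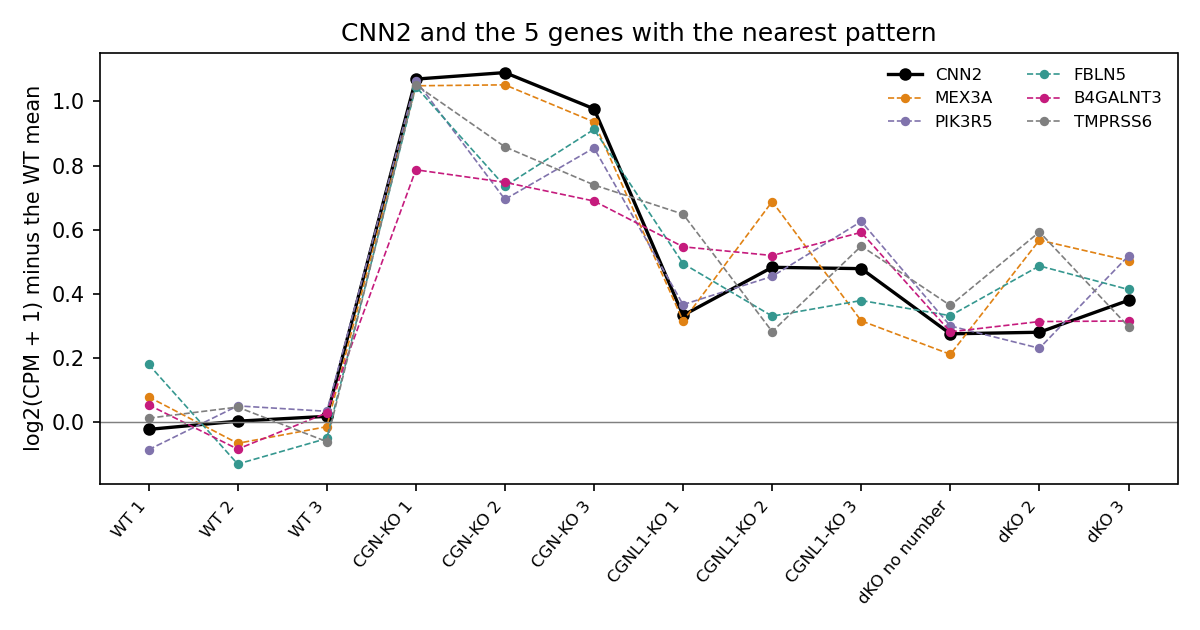
Log2(CPM + 1) minus the WT mean (vertical axis) in the 12 libraries (horizontal axis, ordered by genotype) for CNN2 and the 5 genes nearest to it in pattern. Lines join the libraries of a gene for reading only. All 6 genes stand highest in the CGN-KO libraries, where CNN2 averages 1.05, and lower in CGNL1-KO and dKO cells. The 5 genes were picked for this pattern, so their likeness to CNN2 was fixed in advance.

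The genes next to each SRF-MRTF gene were also examined, by gene order in RefSeq (assembly UU_Cfam_GSD_1.0) and after the values of the genes had been seen. The 8 listed genes lie on 8 chromosomes. Of the 24 tested genes nearest to CNN2, 2 were called, both higher, in CGN-KO cells, and their median log2 difference was 0.05, against 1.05 for CNN2. Its direct neighbor ABCA7 was 0.55 higher in CGN-KO cells, 0.15 higher in CGNL1-KO cells, and at -0.13 in dKO cells on the log2 scale, and the neighbor on the other side, TMEM259, was within 0.09 of WT in all 3 lines. Around FLNA, 9 of 24 neighbors were called higher and 1 lower in dKO cells, with a median of 0.17 against 0.26 for FLNA, and the part of this stretch in the FLNA values was not tested. The neighbors of TAGLN in CGNL1-KO cells had a median of -0.005, with 3 of 24 called lower. Those of TPM1 in dKO cells had a median of -0.13, with 3 higher and 9 lower, a median opposite in sign to the TPM1 change. Of all 12650 genes tested, 1412 were called higher and 996 lower in CGN-KO cells. The counts were 861 and 441 in CGNL1-KO and 1875 and 1458 in dKO cells.

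Further genes of the pathway were taken from 4 lists. The SRF cofactors MRTFA and MRTFB, listed under the older symbols MKL1 and MKL2, were not called in any KO line. MKL1 stood at 68.3 to 76.6 CPM in WT and 76.1 to 86.5 CPM in dKO cells (log2 difference 0.17, adjusted p = 0.0773), and MKL2 at 70.0 to 79.7 and 81.5 to 85.4 CPM (log2 difference 0.15, adjusted p = 0.0946). Of the 5 cofactors tested, with medians of -0.10, -0.02, and 0.12 in the 3 lines (all genes, -0.004 to -0.0004), only ELK3, a TCF that can repress SRF targets, was called, and it was lower in all 3 lines, which is 1 of 5 where 19.0%, 10.3%, and 26.3% of all genes were called in CGN-KO, CGNL1-KO, and dKO cells. In dKO cells 2 of the 5 were called with the replicate block or with only the 2 genotypes compared. Calls over all genes in dKO cells ranged from 3061 to 4087 over the 9 settings. ELK3 was at 59.3 to 64.7 CPM in WT, 46.7 to 47.3 in CGN-KO, 47.2 to 50.6 in CGNL1-KO, and 42.8 to 45.8 CPM in dKO cells (log2 differences -0.39, -0.34, and -0.48, adjusted p = 0.000122, 0.000833, and 1.17e-05). Of its 24 neighbors 8, 2, and 6 were called lower in these lines and 0 higher, with medians of -0.15, -0.11, and -0.14. Of all 12650 genes 996, 441, and 1458 were called lower. The part of this stretch in the ELK3 values was not tested.

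Of 25 other cytoskeletal MRTF-SRF targets tested, 3 rose and 5 fell in CGN-KO cells, 3 rose and 3 fell in CGNL1-KO cells, and 7 rose and 5 fell in dKO cells. The totals of 8, 6, and 12 of 25 stand against 19.0%, 10.3%, and 26.3% of all genes called. Their medians of -0.03, 0.07, and 0.05 lay within 0.1 of those of all genes, and rises and falls both occurred in each line. MYL9, a regulatory light chain of myosin, was at 9.88 to 13.1 CPM in WT, 22.1 to 25.5 in CGN-KO, 20.0 to 24.0 in CGNL1-KO, and 36.6 to 39.2 CPM in dKO cells, with log2 differences of 1.04, 0.90, and 1.67. The dKO line was thus the highest for MYL9 and CGN-KO the highest for CNN2. FBLIM1, migfilin, a filamin-binding adaptor, was 0.93 higher in CGN-KO, 0.42 higher in CGNL1-KO, and 0.91 higher in dKO cells. DSTN, the actin-severing protein destrin, was higher in all 3 lines (log2 differences 0.55, 0.56, and 0.59). Of its 24 neighbors 24, 23, and 22 were called higher in these lines, with medians of 0.56, 0.61, and 0.58. Of all 12650 genes 1412, 861, and 1875 were called higher. The part of this stretch in the DSTN values was not tested.

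Among the falls, FHL1, a LIM protein, was lower in all 3 lines (log2 differences -0.88, -1.24, and -1.31), but it rested on 23 to 49 reads in WT and 2 to 19 reads in KO libraries. It exceeded the filter of 1 CPM in the 3 WT libraries only (1.36 to 2.34 CPM, against 0.114 to 0.626 CPM in KO libraries), so it was tested only because WT was high, and its calls, counted among the falls above, carry no weight. ITGA5, the fibronectin receptor subunit, was lower in CGN-KO cells (-0.50, 95% confidence interval -0.80 to -0.20, adjusted p = 0.0193 in limma). It was a low gene, at 4.60 to 5.08 CPM in WT and 2.36 to 3.56 CPM in CGN-KO cells. These levels rest on 78 to 99 and 40 to 106 reads per library. CNN3, the acidic calponin, was lower in all 3 lines (-0.32, -0.29, and -0.41), the reverse of its relative CNN2. Of its 24 neighbors 5, 2, and 7 were called lower in these lines and 1, 0, and 1 higher, with medians of -0.10, -0.06, and -0.11. Of all 12650 genes 996, 441, and 1458 were called lower. The part of this stretch in the CNN3 values was not tested.

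Of 5 tested targets that MRTF-SRF shares with YAP, 1 rose in CGN-KO and 2 each in CGNL1-KO and dKO cells, with medians of 0.28, 0.25, and 0.15, where 19.0%, 10.3%, and 26.3% of all genes were called. The count in CGN-KO cells was 4 without CGN-KO replicate 1 and 2 without WT replicate 2 or CGNL1-KO replicate 1, and with the replicate block it was 3 in CGN-KO and 4 in dKO cells. CTGF, a secreted matricellular protein, rose in all 3 lines, from 38.0 to 43.7 CPM in WT to 65.5 to 69.6 CPM in CGN-KO cells (log2 differences 0.69, 0.49, and 0.68). ANKRD1 was 0.67 higher in CGNL1-KO and THBS1 0.51 higher in dKO cells. Of 12 tested TCF-SRF immediate early targets, 3 rose and 1 fell in CGN-KO cells, 2 fell in CGNL1-KO cells, and 2 rose and 2 fell in dKO cells, with medians of 0.29, -0.10, and 0.06, against the same shares of all genes. The CGN-KO count of 4 was 2 without CGN-KO replicate 1 or WT replicate 2, 7 without CGNL1-KO replicate 1, and 10 with the replicate block. The CGNL1-KO count of 2 was 1 without WT replicate 3 or CGNL1-KO replicate 3 and 5 with the block, and the dKO count of 4 was 2 without WT replicate 2 or dKO replicate 3. Calls over all genes moved too. Over 9 settings they ranged from 2161 to 3429 in CGN-KO, 787 to 1897 in CGNL1-KO, and 3061 to 4087 in dKO cells. With 1 library left out the ranges were 1625 to 2923, 846 to 1422, and 2343 to 3795. The recomputed counts are thus not set beside an all-gene share of their own setting. FOSB (0.62 and 0.57) was higher in CGN-KO and dKO cells, EGR1 (0.39 and 0.44) in the same lines, and DUSP1 (0.48) in CGN-KO cells. KLF6 was lower in all 3 lines (-0.46, -0.32, and -0.42), IER2 in CGNL1-KO cells (-0.34), and MCL1 in dKO cells (-0.18). FOSB and DUSP1 were highest in replicate 1 of CGN-KO cells, at 11.7 and 134 CPM, against 6.50 to 7.26 and 89.8 to 100.1 CPM in the other two libraries of that line. Of the 24 neighbors of FOSB, 12 were called higher and 1 lower in dKO cells, with a median of 0.24. Of all 12650 genes 1875 were called higher in that line. In CGN-KO cells 1 neighbor was called higher and 1 lower, with a median of 0.05. The part of this stretch in the FOSB values was not tested.

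**Figure D4:**
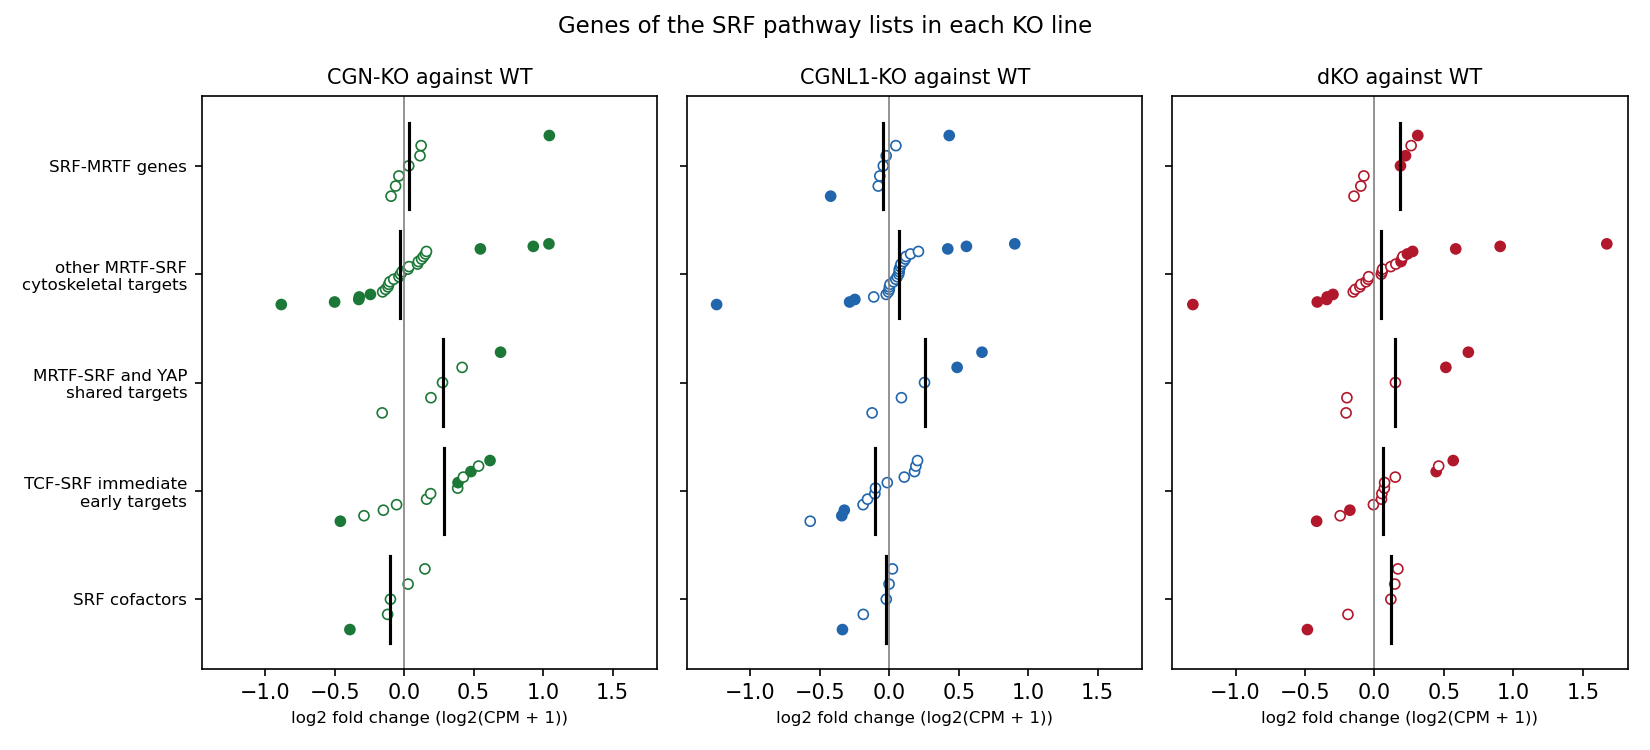
Log2 fold change against WT (horizontal axis, difference in log2(CPM + 1)) of the genes of 5 lists, the SRF-MRTF genes and 4 further lists of the pathway (vertical axis), in the 3 KO lines, 1 panel each. Each point is 1 tested gene, filled at an adjusted p below 0.05, and the black line is the median of the list. Points lie on both sides of 0 in most lists, with MYL9 highest among the cytoskeletal targets in dKO cells at 1.67.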

How the data were processed

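mRNA was sequenced in 12 libraries of MDCKII cells, 3 per genotype, with groups taken from the sample labels. The submitters' processing notes name STAR 2.7.0f, HTSeq 0.9.1, and CanFam3.1, and the strand setting of the counting is not given in the sources used here. The authors deposited CPM per gene and library, which were treated as a signal because they are scaled by TMM and the column totals differ between libraries. Every value was a whole multiple of the value of 1 read (100% of values, tolerance 0.02), so reads were recovered. The scaling factors found with these reads matched the TMM factors of edgeR within 1.11e-10. 1 dKO column carries no replicate number and is called unnumbered, and 16 names look like calendar dates and were left as they are.

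The 12650 genes above 1 CPM in at least 3 libraries were tested with limma 3.58.1 (R 4.3.3, trend) on log2(CPM + 1), in 1 fit of 4 genotypes with Benjamini-Hochberg adjustment over all genes. Departure from additivity is dKO minus CGN-KO minus CGNL1-KO plus WT. Steps were tested on simulated data. The alternatives were edgeR 4.0.16 and DESeq2 1.42.0 on recovered reads, a pseudocount of 0.5, other filters and scalings, only the 2 genotypes compared, a replicate block, and leaving out each library. Intervals on reads cover counting error only.

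Same-numbered libraries were compared by how each gene departed from its genotype mean. The correlation over genes was 0.632, 0.475, and 0.179 between CGN-KO and CGNL1-KO cells. The replicate block took the numbers to pair libraries. Libraries of unlike number were not compared, so the correlations do not test this pairing, and the labels do not state it. The correlations of WT were 0.373, 0.318, and -0.0822 with CGN-KO and 0.329, 0.371, and 0.011 with CGNL1-KO cells. Those of dKO with the other genotypes lay between -0.235 and 0.0859.

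Members and lists were chosen with earlier results of these data known. Named genes are the members, the targeted genes, MRTFA and MRTFB, the 2 largest called rises and falls per list and KO line, and the 5 genes nearest to the member with the largest range. The epithelial and kidney tubule markers are an exception, since their calls are given as counts and not by gene. CGNL1 in CGN-KO cells, ABCA7, TMEM259, the neighbors of ELK3, CNN3, and FOSB, and values of listed genes in further lines were added after they were seen. 1 further list is not reported here. Gene lengths were not used, so levels are not compared between genes. Plots were drawn with matplotlib 3.10.9.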

Additional observations from a re-analysis of the deposited data

Results flagged for a closer look

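The results below were marked because the change against WT differed between KO lines by a test of that difference in limma, and they are given as values. CGN-KO and CGNL1-KO cells differed in CNN2 by 0.61 (adjusted p = 0.000127) and in TAGLN by 0.46 (adjusted p = 0.0118) on the log2 scale. The dKO line differed from CGN-KO cells in CNN2 by -0.73 (adjusted p = 2.93e-05). It differed from CGNL1-KO cells in TAGLN2 by 0.25 (adjusted p = 0.0155) and in FLNA by 0.31 (adjusted p = 0.0461). For CNN2 the dKO change departed from the sum of the single KO changes by -1.16 (adjusted p = 6.46e-06). Each KO genotype was 1 clonal line, so lines and genotypes cannot be told apart.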

How the results depend on the processing

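The 12 calls of the SRF-MRTF genes were recomputed under 9 settings other than leaving out a library, giving 107 values, of which 106 kept direction and call. The exception was FLNA in dKO against CGNL1-KO cells with DESeq2 size factors, which took the count of genes called in that comparison from 2 to 1. The count for dKO against CGN-KO cells went from 1 to 2 with DESeq2 on reads and with only the 2 genotypes compared, and FLNA against WT was called under the same settings (adjusted p = 0.0454 and 0.00738, range over 9 settings 0.00738 to 0.0635). TPM1 in dKO against CGNL1-KO cells was called with library totals (0.17, adjusted p = 0.0258, range 0.0258 to 0.199). With 1 library left out, 131 of 144 values kept the call. Counts of genes called then ranged from 1 to 2 for CGN-KO against CGNL1-KO, 1 to 2 for dKO against CGN-KO, 0 to 2 for dKO against CGNL1-KO, 2 to 4 for dKO against WT, 1 to 2 for departure from additivity, and 2 to 5 among the 4 genotypes, and stayed at 1 for CGN-KO and 2 for CGNL1-KO against WT. Over all genes the ranges between KO lines were, in the same order, 341 to 1092, 546 to 1512, and 1106 to 2060. They were 2343 to 3795 for dKO against WT, 831 to 1618 for departure from additivity, and 2873 to 4532 among the 4 genotypes. Against WT they were 1625 to 2923 for CGN-KO and 846 to 1422 for CGNL1-KO.

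With the replicate block over the 11 numbered libraries, 1, 2, and 3 genes were called in CGN-KO, CGNL1-KO, and dKO against WT, 2 for CGN-KO against CGNL1-KO, 1 for dKO against CGN-KO, and 3 for dKO against CGNL1-KO, where TAGLN was called (0.36, adjusted p = 0.0322, range over 9 settings 0.0322 to 0.138). Over all genes the block took the calls for CGN-KO against CGNL1-KO from 656 to 1154, and only these 2 genotypes gave 327. CGNL1-KO against WT fell from 1302 to 787 genes with only these 2 genotypes. The correlations of same-numbered libraries do not settle whether the numbers pair WT, or any line, with another.

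Small differences that were not called changed sign. SRF in CGN-KO against CGNL1-KO (0.007) was -0.001 with edgeR and -0.0033 with DESeq2, and in dKO against CGNL1-KO it was 0.004 with library totals. VCL was 0.0299 in CGN-KO against CGNL1-KO with library totals, and -0.0001, -0.0013, and -0.006 in dKO against CGNL1-KO with DESeq2 size factors, DESeq2, and the block. The departure of TPM1 was -0.0157 with the block. With 1 library left out, FLNA ranged from -0.0844 to 0.1069 (CGN-KO against CGNL1-KO), -0.1353 to 0.0638 (CGN-KO against WT), and -0.1402 to 0.0158 (CGNL1-KO against WT). SRF ranged from -0.068 to 0.0819 (CGN-KO against CGNL1-KO), -0.1433 to 0.0067 (CGNL1-KO against WT), -0.095 to 0.0127 (dKO against CGN-KO, 0.0005 without the unnumbered library), -0.1047 to 0.0453 (dKO against CGNL1-KO, 0.0074 without it), and -0.0433 to 0.1066 (additivity). TAGLN ranged from -0.0089 to 0.077 (CGN-KO against WT), TAGLN2 from -0.0596 to 0.0119 (CGNL1-KO against WT), and TPM1 from -0.021 to 0.0462 (additivity). VCL ranged from -0.0599 to 0.0324 (CGN-KO against CGNL1-KO), -0.0292 to 0.0503 (dKO against CGN-KO), and -0.0417 to 0.0488 (dKO against CGNL1-KO). The cause of these changes was not tested.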
